A study of Bos taurus with 15 samples.

Results

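Enzyme genes of glycolysis and sugar catabolism, 9 in all, were followed in single bovine oocytes from dominant follicles (DF): PGD, GPI, ENO1, ENO3, PKM, ALDOA, GALT, NEU1 and SORD. They are 9 of the 21218 genes in the deposited count table, and were picked by name from the carbohydrate catabolic genes that the study had called between these DF oocytes and oocytes at the end of growth. The study tied this process to genes higher in the oocytes at the end of growth. That choice rested on the overall level in DF oocytes and did not use the time points. It did use the same DF oocytes, those that passed the study's quality control, so low values at any time point could feed it.

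The oocytes came from heifers synchronised with a first dose of gonadotrophin-releasing hormone (GnRH), a progesterone-releasing device and prostaglandin F2a, and each of the 15 oocytes came from a different animal. The 6 T1 oocytes (T1.1 to T1.6) were taken 24 h before ovulation, from animals slaughtered on day 9. The 4 T2 oocytes (T2.1 to T2.4), 19-23 h after oestrus detection, and the 5 T3 oocytes (T3.1 to T3.5), about 2 h before ovulation, came from animals slaughtered on day 10. T2 is timed from oestrus and T3 from ovulation, so which of them is later is not given. Part of the animals received a second GnRH dose, and the study's methods name them beside the day 10 slaughter in words that can be read as T3 alone or as T2 and T3. Time and this treatment therefore cannot be told apart in comparisons between the time points. Titles of the T2 samples place the hours before ovulation, whereas their other labels place them after oestrus, which is the reading used here. The animals belonged to 2 earlier trials, and which trial each oocyte came from is not given in the sources used here. Ovaries travelled on ice, cumulus cells were removed by pipetting, and messenger RNA was captured by its poly-A tail (Smart-seq2), so counts also depend on tail length.

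Glycolysis splits glucose into pyruvate: GPI, ALDOA, the enolases and PKM each catalyse 1 of its steps. The oxidative pentose phosphate pathway, in which PGD works, branches off at glucose 6-phosphate and supplies NADPH and ribose phosphate. The mammalian oocyte has a low glycolytic capacity of its own and takes up pyruvate made by the surrounding cumulus cells, while flux through the pentose phosphate pathway has been linked with the resumption of meiosis. GALT, SORD and NEU1 act on other sugars: galactose, sorbitol and the sialic acid of glycoproteins.

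Total counts ran from 175263 to 4894970 over the 15 oocytes. The study's own list of oocytes kept after quality control names 11 of them (5 T1, 4 T2, 2 T3; lowest total 824854), and these are the set tested. The other 4 are T1.4 and, of the T3 oocytes, T3.1, T3.3 and T3.5, and their values are given apart. T3.5 had counts for only 2686 genes, and in T3.1 a single oocyte gene, OOSP2, took 187987 CPM (counts per 1e6 reads), which lowers the share left to every other gene. Of the oocyte markers that could be named, FIGLA, OOSP2 and KPNA7 had reads in all 15 oocytes and NLRP5 in 14. STAR, the 1 nameable marker of the steroid-making follicle cells among 16, was present in all 15, at 80.8 to 376 CPM in T1, 188 to 365 in T2 and 22.8 to 111 in T3. CSF1R, the 1 nameable leukocyte marker of 10, was at 0 to 66.2 CPM with reads in 12 oocytes. No erythrocyte marker of 6 could be named.

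A CPM value is the gene's share of the reads of that oocyte, so the amount of RNA in the whole oocyte is not known. Transcript lengths of the build used were not at hand, so levels are compared only within a gene.

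PGD, 6-phosphogluconate dehydrogenase of the oxidative pentose phosphate pathway, had its highest mean after oestrus detection and its lowest 2 h before ovulation. In the 5 kept T1 oocytes it stood at 72.6, 23.3, 271, 133 and 92.1 CPM (T1.1, T1.2, T1.3, T1.5 and T1.6). In the 4 T2 oocytes it stood at 366, 140, 169 and 136 CPM, and in the 2 kept T3 oocytes at 26.8 and 40.9 CPM. Every T2 oocyte thus lay above both T3 oocytes, while T1 overlapped with each of the other groups. Read counts behind these values were between 76 and 717. Of the oocytes not kept, T1.4 had 87.0 CPM, within the T1 range, and T3.1, T3.3 and T3.5 had 3.22, 55.2 and 17.1 CPM, from 2, 15 and 3 reads, so all 5 T3 oocytes lay below all T2 oocytes. The share of all genes with this pattern over the 5 T3 oocytes was not calculated, so it cannot be called unusual.

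The mean PGD level was 118 ± 94.0 CPM (SD, n = 5) in T1, 203 ± 110 (n = 4) in T2 and 33.8 ± 9.95 (n = 2) in T3. Between T3 and T2 the log2 fold change was -2.25 (SE 0.76), with an adjusted p of 0.145 by the edgeR quasi-likelihood test with Benjamini-Hochberg adjustment over the 10198 genes tested, so PGD did not pass. DESeq2 gave nearly the same size, -2.28, and called it, with an adjusted p of 0.0249. DESeq2 called 6.49% of the genes it tested in that comparison. Groups that do not overlap with T3 lower were seen in 18.7% of genes, with 2 kept oocytes in T3. With all 15 oocytes the quasi-likelihood estimate was -2.48 (SE 0.85, adjusted p 0.212 by edgeR). The T2 minus T1 estimate was 0.80 (SE 0.52) and T3 minus T1 was -1.44 (SE 0.71), neither past the threshold. STAR had the order of T3 below T2 in common with PGD: its 5 T3 values were below all 4 T2 values as well, again without a share over all genes for these 5. Among the T2 oocytes T2.1 was the highest in PGD (366 CPM) but the lowest in STAR (188 CPM). The part of STAR in the PGD difference was not tested.

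**Figure D1:**
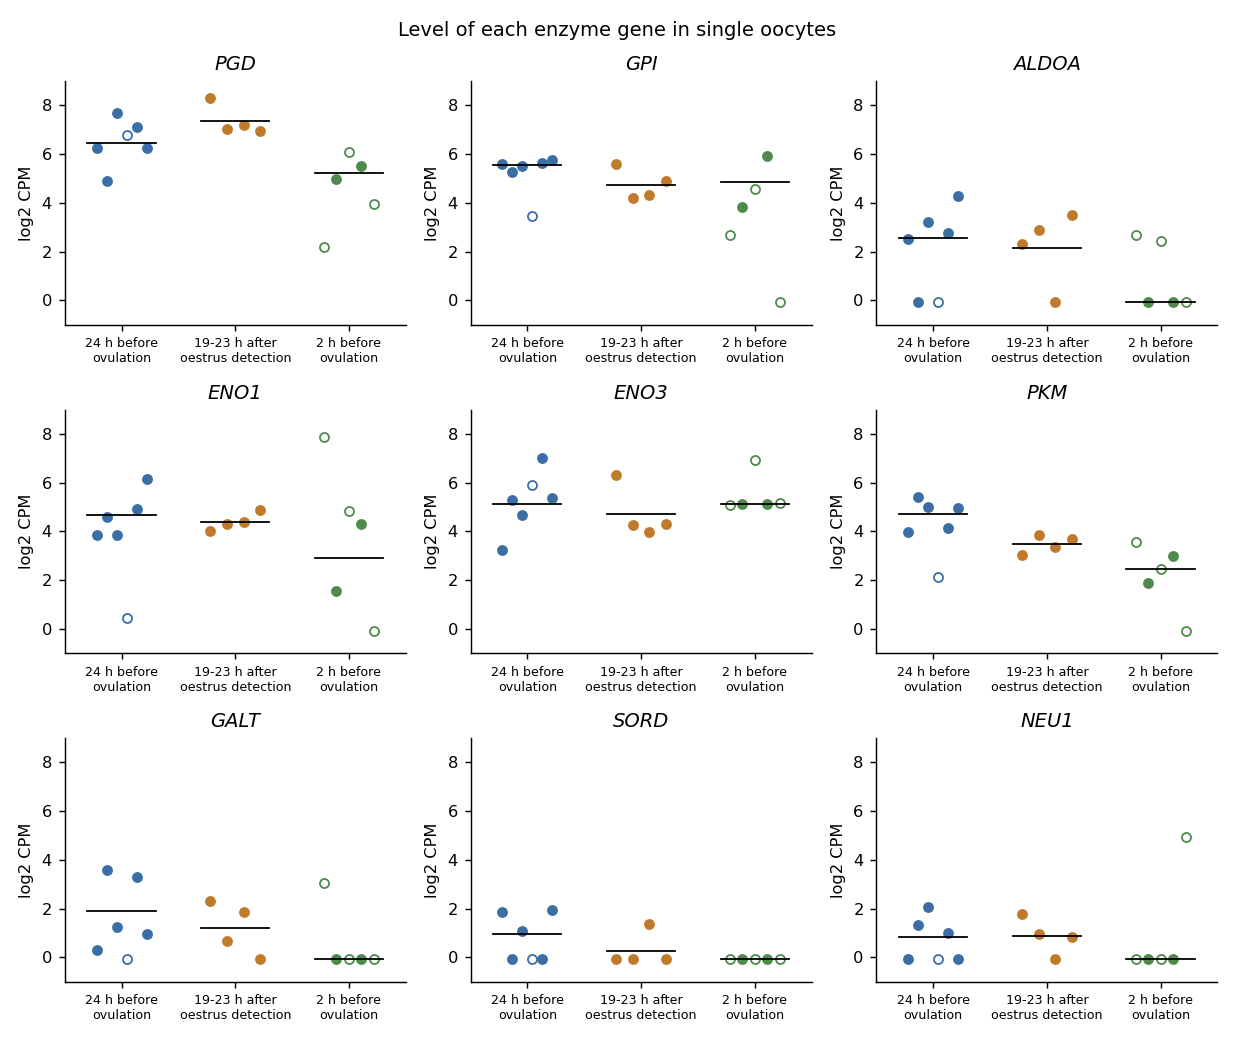
Level of each of the 9 genes, as log2 CPM with TMM scaling over the 15 oocytes and a prior count of 2, by time point. Filled points are the 11 oocytes kept by the study, open points the other 4, and bars the mean of the kept oocytes. The lowest row of points in a panel is 0 reads. PGD is lower in all 5 T3 oocytes than in all 4 T2 oocytes, and ALDOA, GALT, SORD and NEU1 have 0 reads in both kept T3 oocytes. How many of all genes share the PGD pattern over the 5 T3 oocytes was not calculated.

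GPI, glucose 6-phosphate isomerase, takes the same substrate in the other direction, into glycolysis. Among the kept T1 oocytes it was steady in log2 CPM with TMM scaling, at 5.49 to 5.71, but less so in plain CPM, at 45.8, 30.4, 59.0, 46.6 and 66.7. It was at 54.1, 18.6, 21.9 and 32.0 CPM in the T2 oocytes and at 11.6 and 55.0 CPM in the 2 kept T3 oocytes. All 3 groups overlapped. T1.4 had only 8.00 CPM from 23 reads in a library of 2874041, well below the other T1 oocytes, and T3.1, T3.3 and T3.5 had 4.83, 18.4 and 0 CPM. Fitted differences were small against their errors: -0.73 (SE 0.57) for T2 minus T1, -0.33 (SE 0.70) for T3 minus T1 and 0.40 (SE 0.71) for T3 minus T2. The last of these turned to -0.42 with all 15 oocytes.

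Setting PGD against GPI within each oocyte compares both outlets of glucose 6-phosphate without any scaling between libraries. The log2 ratio of PGD to GPI was 0.66, -0.37, 2.18, 1.5 and 0.46 in the kept T1 oocytes. In the T2 oocytes it was 2.74, 2.86, 2.89 and 2.06, and in the kept T3 oocytes 1.16 and -0.42. The T2 oocytes were close together and above 4 of the 5 T1 oocytes, T1.3 being the exception, and above both kept T3 oocytes. Of the T3 oocytes not kept, T3.1 was at -0.48, T3.3 at 1.55 and T3.5 at 4.06, above every T2 oocyte but from 3 reads of PGD and 0 of GPI. Group means were 0.88 ± 0.98 (SD, n = 5), 2.64 ± 0.39 (n = 4) and 0.37 ± 1.12 (n = 2).

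The T2 minus T1 difference in this ratio was 1.75, with an exact two-sided permutation p of 0.0317 (smallest possible 0.0159), and 0.190 after adjustment over the 6 ratio comparisons made. T3 minus T2 was -2.27 with an exact p of 0.133, the smallest that 2 against 4 oocytes allow. With all 15 oocytes the T2 minus T1 difference was 1.34 (exact p 0.0952), since T1.4, with 250 reads of PGD and 23 of GPI, had the ratio 3.32, and T3 minus T2 was -1.46 (exact p 0.190). In plain counts PGD made between 80.9% and 88.5% of the PGD and GPI reads in the T2 oocytes and between 43.4% and 82.1% in the kept T1 oocytes. These are read shares, not per length, and serve only to compare time points.

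PGD also took a larger part of the reads of all 9 genes after oestrus detection. It made 66.8%, 63.1%, 68.4% and 55.4% of them in the T2 oocytes. In the kept T1 oocytes it made between 16.0% and 61.8%, and in the kept T3 oocytes 37.1% and 27.1%. T1.4 had 60.1% and T3.1 only 1.23%.

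**Figure D2:**
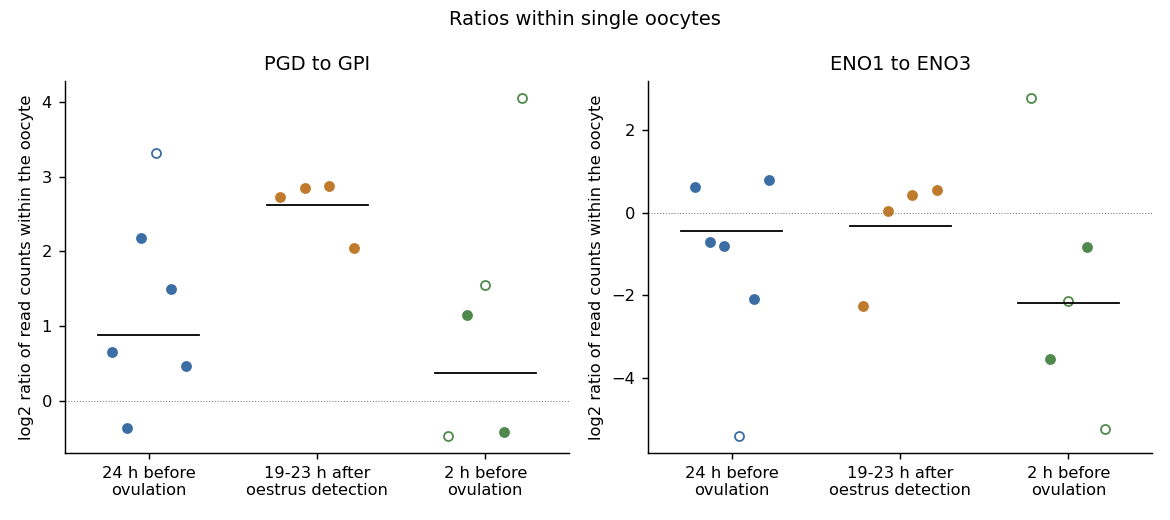
Log2 ratio of PGD to GPI (left) and of ENO1 to ENO3 (right) within each oocyte, computed from log2 CPM with a prior count of 2 over the 15 oocytes, by time point. Filled points are the 11 kept oocytes, open points the other 4, and bars the mean of the kept ones. The 4 T2 oocytes lie together at 2.05 to 2.88 for PGD to GPI, while ENO1 to ENO3 spreads over several log2 units at every time point.

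ALDOA, aldolase A, which cleaves fructose 1,6-bisphosphate, was near the limit of counting. The kept T1 oocytes had 16, 0, 29, 28 and 19 reads, or 4.61, 0, 11.0, 5.72 and 23.0 CPM. The T2 oocytes had 5, 20, 0 and 25 reads, and both kept T3 oocytes had 0. Set against a floor of 3 reads over both kept T3 libraries, ALDOA there was at least 16.1-fold below the kept T1 mean and at least 10.6-fold below the T2 mean. These bounds cover counting error in the 2 libraries and not the spread between oocytes. The first bound was 9.67-fold without T1.6, 7.73-fold without T3.2 and 8.38-fold without T3.4, and the second was 5.08-fold without T3.2 and 5.50-fold without T3.4, a check added after seeing the data. T1.2 and T2.3, with 0 reads like both kept T3 oocytes, made the groups overlap. Of the oocytes not kept, T3.1 and T3.3 had 3 and 1 reads, or 4.83 and 3.68 CPM, and T1.4 had 0 reads. The edgeR quasi-likelihood p was 0.0192 for T3 against T1 and 0.0252 against T2, with adjusted p of 0.469 and 0.217 over all genes, so ALDOA was not called.

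The 2 enolase genes were split differently from oocyte to oocyte. Enolase turns 2-phosphoglycerate into phosphoenolpyruvate, and ENO1 is known as the ubiquitous form and ENO3 as the muscle form. ENO1 was at 13.0, 18.4, 17.8, 28.2 and 87.3 CPM in the kept T1 oocytes, at 17.7, 20.3, 23.2 and 31.1 CPM in the T2 oocytes, and at 1.76 and 17.2 CPM in the kept T3 oocytes. The groups overlapped, and the T2 oocytes were the closest together, with a mean of 23.1 ± 5.77 CPM (SD, n = 4). T1.4 had 1 ENO1 read in 2874041. T3.5 had 0 reads, which at its depth allows up to 17.1 CPM, whereas T3.1 had 127 reads, or 205 CPM, the highest value of all 15.

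ENO1 estimates were -0.50 (SE 0.73) for T2 minus T1, -1.47 (SE 0.99) for T3 minus T1 and -0.97 (SE 0.98) for T3 minus T2, none past the threshold. Both T3 estimates changed sign with all 15 oocytes, to 1.17 and 1.44 (SE 1.09 and 1.25). Leaving out 1 oocyte at a time moved T3 minus T1 between -3.83 and -0.64, the ends coming from the 2 kept T3 oocytes, of which T3.2 had 5 reads and T3.4 had 45.

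ENO3 was at 8.06, 30.4, 31.7, 123 and 49.7 CPM in the kept T1 oocytes and at 89.6, 19.6, 16.9 and 20.9 CPM in the T2 oocytes. It was at 29.6 and 31.3 CPM in the kept T3 oocytes. The highest T1 value was that of T1.5, with 601 reads, and T2.1 stood apart from the other 3 T2 oocytes. T3.1, T3.3 and T3.5 had 29.0, 99.4 and 39.9 CPM, so that ENO3 had reads in all 15 oocytes, T3.5 included with 7. Estimates were -0.58 (SE 0.75), -0.50 (SE 0.95) and 0.08 (SE 0.96) for T2 minus T1, T3 minus T1 and T3 minus T2. Without T1.5 the first was 0.24 and the second 0.31.

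The log2 ratio of ENO1 to ENO3 averaged -0.43 ± 1.19 (SD, n = 5) in T1, -0.31 ± 1.33 (n = 4) in T2 and -2.24 ± 1.98 (n = 2) in T3. Differences were 0.12 for T2 minus T1 (exact permutation p 0.873), -1.80 for T3 minus T1 (exact p 0.190, smallest possible 0.0952) and -1.93 for T3 minus T2 (exact p 0.267, smallest possible 0.133), all two-sided. ENO1 made 61.6%, 37.7%, 35.9%, 18.7% and 63.7% of the enolase reads in the kept T1 oocytes. It made 16.5%, 50.9%, 57.8% and 59.8% in the T2 oocytes and 5.62% and 35.4% in the kept T3 oocytes. If every read is taken as a separate molecule, the spread among oocytes of a single time point was larger than counting allows. The exact 95% binomial interval of T2.1 was 10.3% to 24.6% and that of T2.4 was 50.1% to 69.0%.

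The extremes were among the oocytes not kept, with 1 ENO1 read of 135 in T1.4 (0.741%, exact interval 0.0188% to 4.06%) and 127 of 145 in T3.1 (87.6%, 81.1% to 92.5%). These intervals cover counting error only, as the reads carry no molecular identifiers and copies made by amplification are counted as separate reads. ENO1 and ENO3 are paralogues, and how reads that match more than 1 gene were counted is not given, so the split between them is uncertain to that extent.

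The count of ENO3 moved with that of a neighbouring gene. SPAG7, which lies next to ENO3 in the RefSeq annotation of ARS-UCD2.0, was the gene most like it over the 11 kept oocytes, with a Spearman correlation of 0.91 among 1664 genes that had a symbol and passed the filter. Over the 15 oocytes SPAG7 had 182 reads against 1429 of ENO3, or 11.3% of the reads of both. In all 15 oocytes the exact 95% interval of this share held the pooled value, although the ENO3 count ranged from 7 to 601. In the 14 oocytes with at least 10 reads of the pair the share was between 3.57% and 20.0%.

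PGD and ALDOA did not show such a steady share with their neighbours. CENPS beside PGD made between 14.2% and 94.7% of the reads of that pair in the 14 oocytes with at least 10 such reads, with the pooled share inside the interval of only 4 of 15 oocytes. PPP4C beside ALDOA had it inside the interval of 8 of 15. The level of CENPS ran opposite to that of PGD over the 11 kept oocytes (Spearman -0.8), and the value was -0.12 over all 15. For PPP4C with ALDOA the values were -0.11 and 0.02. The reason for the inverse course of CENPS and PGD was not tested. Neighbours were looked up after the ENO3 value had been seen, the counting is not stated to use strand, and whether the reads of SPAG7 and ENO3 are separate transcripts was not tested.

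**Figure D3:**
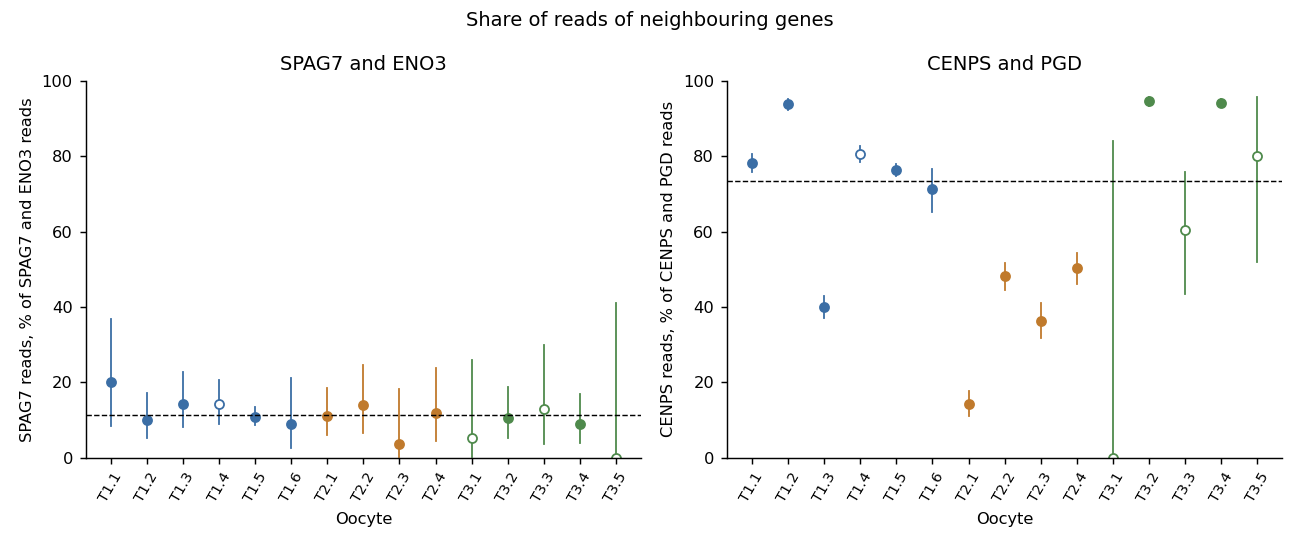
Reads of SPAG7 as a percentage of SPAG7 and ENO3 reads (left) and of CENPS as a percentage of CENPS and PGD reads (right) in each of the 15 oocytes, with exact 95% binomial intervals as vertical lines and the pooled percentage dashed. Open points are the 4 oocytes not kept. The SPAG7 intervals all hold the pooled 11.3%, while the CENPS shares run from 14.2% to 94.7% among oocytes with at least 10 reads.

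PKM, pyruvate kinase of the last glycolytic step, had its highest mean in T1 and its lowest in T3. The kept T1 oocytes had 14.1, 32.9, 40.4, 15.9 and 37.6 CPM, the T2 oocytes 8.40, 14.4, 10.7 and 13.0 CPM, and the kept T3 oocytes 2.47 and 6.49 CPM. In log2 CPM with TMM scaling the 3 groups did not overlap, but in plain CPM T2.2 (14.4) was just above T1.1 (14.1). With TMM scaling PKM was the only one of the 7 tested members whose T2 group lay wholly below T1, a pattern seen in 2.3% of the genes tested. Non-overlap with T3 lower than T1 was met by PKM and GALT (5.18% of genes), for GALT by a single read in T1.1 and in T1.6, and with T3 lower than T2 by PKM and PGD (18.7% of genes).

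PKM means were 28.2 ± 12.3 CPM (SD, n = 5), 11.6 ± 2.63 (n = 4) and 4.48 ± 2.85 (n = 2). The quasi-likelihood estimates were -1.37 (SE 0.69) for T2 minus T1, -2.42 (SE 0.96) for T3 minus T1 and -1.05 (SE 0.91) for T3 minus T2, with edgeR adjusted p of 0.448, 0.471 and 0.589, so none passed. DESeq2 called T3 minus T1, with a log2 fold change of -2.47 and an adjusted p of 0.0250, beside 2.48% of all genes. Of the other oocytes, T1.4 had 2.78 CPM from 8 reads, and T3.1, T3.3 and T3.5 had 9.66, 3.68 and 0 CPM, so with all 15 the 3 groups overlapped and T3 minus T1 was -2.09 (SE 1.07).

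**Figure D4:**
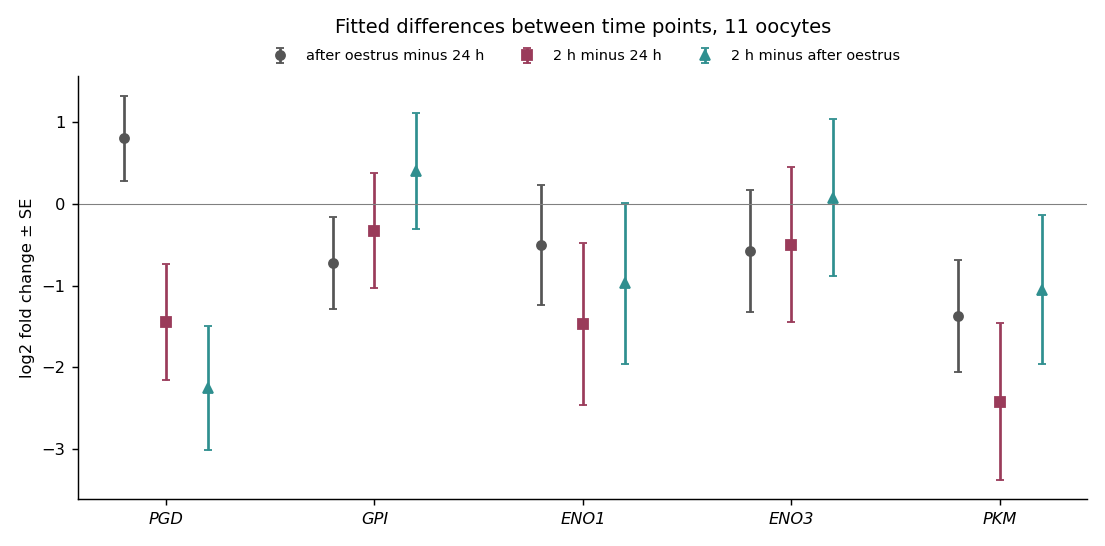
Log2 fold change with a standard error worked back from the F statistic, from the edgeR quasi-likelihood fit of the 11 kept oocytes, for the 5 genes with reads in every kept oocyte. Each gene has the T2 minus T1 (circle), T3 minus T1 (square) and T3 minus T2 (triangle) difference. PGD lies at 0.80, -1.44 and -2.25 and PKM at -1.37, -2.42 and -1.05, and no difference shown passed the adjusted threshold.

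GALT, galactose 1-phosphate uridylyltransferase of the Leloir pathway, had few reads: 1, 29, 5, 42 and 1 in the kept T1 oocytes, 5, 2, 5 and 0 in T2 and 0 in both kept T3 oocytes. The T1 values, 0.288, 8.91, 1.89, 8.58 and 1.21 CPM, were all above 0, but T1.1 and T1.6 rested on 1 read each, and T1.1 lay below the 0.550 CPM that the T3 zeros allow, so a separation of the groups was not detectable at this depth. Against the floor of 3 reads over the 2 kept T3 libraries, GALT there was at least 7.59-fold below the kept T1 mean and at least 3.86-fold below the T2 mean. These bounds too leave out the spread between oocytes. Leaving out T3.2 or T3.4 took the first bound to 3.64-fold and 3.95-fold and the second to 1.86-fold and 2.01-fold, and without T2.1 the second was 2.32-fold. Of the oocytes not kept, T3.1 had 4 reads, or 6.44 CPM, and T1.4 had 0 reads. The edgeR quasi-likelihood p for T3 against T1 was 0.0310, and 0.504 after adjustment.

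SORD, sorbitol dehydrogenase of the polyol pathway, had 9, 0, 4, 0 and 3 reads in the kept T1 oocytes, 3 in T2.3 and 0 in every other oocyte. NEU1, the lysosomal sialidase, had 0, 4, 11, 5 and 0 reads in the kept T1 oocytes, 3, 3, 0 and 2 in T2 and 0 in both kept T3 oocytes. Both failed the filter on low counts and were not tested. The 0 counts in T3 allow up to 0.550 CPM over the 2 libraries. T3.5 had 6 NEU1 reads, which at its depth of 175263 is 34.2 CPM.

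Seen together, 7 of the 9 genes passed the filter, and the quasi-likelihood test called 0 of 7 over the 3 time points and in each pair, where it called 0.00981% and 0% of all genes. At an unadjusted p under 0.05 there were 2 members over the 3 time points (14.8% of genes), 0 for T2 against T1 (12.2%), 3 for T3 against T1 (9.09%) and 2 for T3 against T2 (17.3%). The likelihood ratio test of edgeR also called 0 in each comparison, beside 6.5% of genes over the 3 time points, 3.54% for T2 against T1, 1.36% for T3 against T1 and 6.87% for T3 against T2. DESeq2 called 1 of 9, PKM, over the 3 time points (4.59% of genes) and T3 against T1, 0 for T2 against T1 (3.34%) and 1, PGD, for T3 against T2. All 7 estimates were below 0 for T3 minus T1, where 58.3% of all genes were. The median over the 7 was -1.47 against -0.21 over all genes, for T2 minus T1 it was -0.58 against -0.20, and for T3 minus T2 -1.05 against -0.10. The 3 comparisons share oocytes, and a gene can pass the filter through 1 group alone, so these medians are a description and not a test.

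Other genes of sugar metabolism could be named only in part: GAPDH of glycolysis, TKT of the pentose phosphate pathway, AKR1B1 and KHK of the polyol and fructose route, the glucose transporters SLC2A1 and SLC2A8, and PDK2, a kinase that restrains pyruvate dehydrogenase. Of these 7, 6 passed the filter, and 0 rose or fell by the edgeR quasi-likelihood test, where GAPDH and SLC2A8 had an unadjusted p under 0.05. In that test 9.09% to 17.3% of all genes had such a p, depending on the comparison. DESeq2 called GAPDH lower in T2 and in T3 than in T1, and SLC2A8 lower in T3 than in T1 and in T2. It called 3.34% of genes for T2 against T1, 2.48% for T3 against T1 and 6.49% for T3 against T2. GAPDH was at 19.9, 81.1, 409, 177 and 362 CPM in the kept T1 oocytes, at 28.0, 50.8, 47.7 and 79.8 CPM in T2 and at 23.6 and 22.5 CPM in the kept T3 oocytes. Its T3 minus T1 log2 fold change was -2.77 (SE 0.87, edgeR adjusted p 0.368), of the size seen for PKM, but T1.1 lay below both T3 oocytes. T3.1 and T3.3 had 163 and 114 CPM.

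SLC2A8 had reads in all kept T1 and T2 oocytes, at 4.91 to 13.7 and 2.80 to 7.88 CPM, and 0 in both kept T3 oocytes. Of the other oocytes only T3.3 had a read. TKT, the other pentose phosphate gene, had 0 to 15 reads per oocyte and none in the 5 T3 oocytes. AKR1B1, the aldose reductase that makes the sorbitol used by SORD, was plentiful at every time point. Its median was 925 CPM in the kept T1 oocytes and 502 CPM in T2, and the kept T3 oocytes had 944 and 535 CPM, with T3 minus T1 at -0.10 (SE 0.64) on the log2 scale.

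The 11 kept oocytes also show which genes follow each member most closely. For PGD these were BIN2 and SNX15 (Spearman 0.93 and 0.92), for GPI TSC22D1 and KHDC4 (0.77 and 0.76), and for ENO1 MRPL10 and AS3MT (0.82 and 0.79). For PKM they were NUBP1 and EMG1 (0.91 and 0.89), for ALDOA SLC9A3 and P3H1 (0.93 and 0.90), for GALT MCOLN1 (0.91), and for ENO3, after SPAG7, SEC61A1 (0.89). Among the members the values lay between -0.10 (ALDOA with GALT) and 0.57 (PKM with GALT). PGD was at -0.02 with GPI, and ENO1 at 0.36 with ENO3. The points share the library and its scaling, and the highest of 1664 values is high in any case.

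Detection depends on depth, so every library was also reduced, by exact calculation, to the 175263 reads of the smallest. The chance of at least 1 read left, summed over the 15 oocytes, was 14.7 oocytes for ENO3, 14.5 for PGD, 13.2 for GPI, 12.0 for ENO1 and 11.3 for PKM. It was 6.52 for ALDOA, 4.02 for GALT, 2.64 for NEU1 and 1.42 for SORD. Without thinning, 15, 15, 14, 14 and 14 oocytes had a read of the first 5 genes and 9, 9, 7 and 4 of the others.

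At that depth ENO3 would be seen in 4.99 of 5 T3 oocytes, PGD in 4.48, GPI in 3.5, ENO1 in 3.23, PKM in 2.56, ALDOA in 1.28 and GALT in 0.735. NEU1 would be seen in 1 of them, T3.5, and SORD had 0 reads in all 5. Of the 6 T1 oocytes ENO3 would be seen in 5.76, PGD in 5.99, GPI in 5.76, ENO1 in 4.88 and PKM in 5.25. At the depth of the shallowest kept oocyte, 824854 reads, the 2 kept T3 oocytes were expected to show 4.73 and 5.00 of the 9 genes, and the other 9 kept oocytes between 6.62 and 8.60. With all 15 at 175263 reads the groups overlapped, as T1.4 was at 3.22 and T3.1 at 5.34. The share of all genes seen at either depth was not calculated. Without thinning, T3.2 and T3.4 had counts for 9371 and 8537 genes in all, and the other kept oocytes for 8608 (T1.2) to 11273 (T1.3). Whether fewer members only follow fewer genes was not tested.

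**Figure D5:**
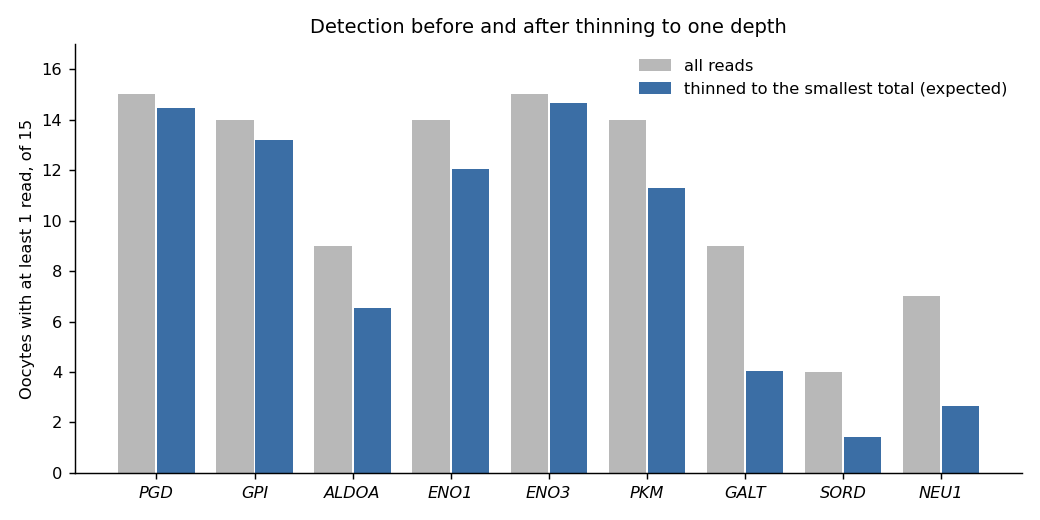
Number of oocytes, of 15, with at least 1 read of each gene, with all reads (grey) and with the number calculated after reducing every library to the smallest total (blue). ENO3 and PGD stay at 14.7 and 14.5 oocytes, while GALT falls from 9 to 4.02 and SORD from 4 to 1.42.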

How the data were processed

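Single-cell RNA sequencing covered 15 DF oocytes in 3 groups. Trimming by the authors used Trim Galore (0.6.6 in the submitters' processing notes) and alignment used HISAT2 against ARS-UCD1.2. The authors then deposited SeqMonk counts for each Ensembl gene, not normalised. For HISAT2 the version, and for SeqMonk the annotation release, strand and duplicate settings, are not given in the sources used here. All 15 count columns were matched by name, and 0 columns belonged to other samples.

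Symbols came from the study's list of differential genes, which names 1741 genes, so genes outside it could not be named. This left 6 of 25 glycolysis genes, 2 of 12 pentose phosphate, 2 of 8 galactose, 3 of 4 fructose and polyol, 2 of 9 glucose uptake, 1 of 17 pyruvate and lactate and 1 of 16 lysosomal glycosidase genes, all under the 80% needed for a statement on a whole list.

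Time points were compared in 1 fit of the 11 oocytes kept by the study with the edgeR (4.0.16, R 4.3.3) quasi-likelihood test, TMM scaling, filterByExpr and Benjamini-Hochberg adjustment over 10198 genes, with calls made where the adjusted p was below 0.05 and the log2 fold change beyond 1.5 either way. The fit gives no standard error, so each SE is the absolute log2 fold change divided by the square root of the F statistic of its test. Log2 CPM used a prior count of 2. Ratios within oocytes were compared with exact permutation tests (Python 3.11.15, numpy 2.4.6, pandas 2.3.3). Thinning used the hypergeometric distribution and shares exact Clopper-Pearson intervals (scipy 1.17.1). The fit was run on simulated data for T2 minus T1 alone, which does not show its power in the comparisons with T3. Alternatives were DESeq2 (1.42.0) on all genes having counts, edgeR's likelihood ratio test, RLE factors, no filter, all 15 oocytes, the replicate number as a block and each oocyte left out. Named were the 9 members, the most abundant nameable genes of each list (up to 4; 3 for cell markers) and the 2 genes most like each tested member, except that some genes are not reported here. Members and lists were chosen with earlier results of these data known. Equal replicate numbers do not pair oocytes, since all animals differ. Depth limits precision at the low counts of ALDOA, GALT, NEU1 and SORD.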

Additional observations from a re-analysis of the deposited data

Results flagged for a closer look

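Within each time point the most extreme oocyte was tested for a gap to its neighbours, as the gap divided by the range of the group (Dixon's ratio), in log2 CPM with a prior count of 2. Of 36 groups and measures examined 4 passed the 95% critical value, and chance alone passes about 1 in 20.

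In GPI, T1.4 was the lowest of the 6 T1 oocytes, at 3.45 against 5.29 to 5.78 in the others (ratio 0.788). ENO3 in T2.1 was the highest of the 4 T2 oocytes, at 6.38 against 4.02 to 4.34 (ratio 0.863), and SPAG7 made 11.1% of the reads of both genes there, close to its pooled share. ENO3 in T3.3 was the highest of the 5 T3 oocytes, at 6.95 against 5.07 to 5.15 (ratio 0.961), where 27 reads were counted. GALT in T3.1 was the only T3 value above 0 reads, at 3.04 against -0.08 (ratio 1.0), from 4 reads. With the other 4 tied at 0 reads this ratio is 1.0 whatever the count, and the 0 counts of T3.3 and T3.5 allow up to 11.0 and 17.1 CPM against 6.44 CPM in T3.1, so it gives no sign that T3.1 stands apart. Of these oocytes T1.4, T3.1 and T3.3 are not on the study's list of kept oocytes.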

How the results depend on the processing

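The quasi-likelihood count of 0 members was unchanged under the likelihood ratio test, RLE factors, no filter, the adjusted p alone, all 15 oocytes and each of 11 oocytes left out (0 to 0 in every comparison). With the replicate block it was also 0 in every comparison, although equal numbers do not mark a shared animal. DESeq2 gave 1 over the 3 time points, 1 for T3 against T1 and 1 for T3 against T2. Of all genes the quasi-likelihood test called 1 over the 3 time points and 0 in each pair, whereas over the 3 time points and for T2 minus T1, T3 minus T1 and T3 minus T2 DESeq2 called 645, 469, 349 and 912, the likelihood ratio test 663, 361, 139 and 701, and no filter 254, 234, 1 and 371. RLE factors gave 17 for T3 minus T2. The cause of these differences was not tested.

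Under all 15 oocytes ENO1 reversed to 1.17 (T3 minus T1) and 1.44 (T3 minus T2), ENO3 to 0.039 (T3 minus T1) and GPI to -0.42 (T3 minus T2), with adjusted p of 0.691 to 0.993 (edgeR). Leaving out 1 oocyte at a time moved GPI between -1.81 and 0.37 (T3 minus T1) and -1.15 and 0.99 (T3 minus T2), the sign changing without T3.2 and without T3.4 respectively. ENO3 moved between -1.35 and 0.24 (T2 minus T1), -0.77 and 0.31 (T3 minus T1) and -0.17 and 0.89 (T3 minus T2), and ALDOA between -1.01 and 0.14 (T2 minus T1). PGD and PKM kept their direction in every pair, PGD between -2.63 and -1.91 for T3 minus T2 and PKM between -3.22 and -1.89 for T3 minus T1.

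The ENO1 to ENO3 ratio lay between -0.29 and 0.78 (T2 minus T1), -3.20 and -0.41 (T3 minus T1) and -3.32 and -0.53 (T3 minus T2), and the PGD to GPI ratio between 1.44 and 2.08, -1.31 and 0.27, and -3.06 and -1.48 for the same pairs. Without T3.4 the PGD to GPI ratio of T3 minus T1 changed sign to 0.27. Prior counts, library size alone and all 15 oocytes changed no direction of a ratio. The mean number of members expected per oocyte was 5.35 at the smallest total, 6.94 at the smallest total of the 11 kept oocytes and 4.31 for at least 2 reads. Mean levels of NEU1 and SORD depended on the prior count: NEU1 was at -0.60 and 1.48 and SORD at -1.06 and 1.37 log2 CPM with prior counts of 0.5 and 5. With library size alone the median log2 change of all genes was -0.46 for T3 minus T1 and -0.44 for T3 minus T2, against -0.21 and -0.10 with TMM.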
